A study of Mus musculus with 18 samples.

Results

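A set of 8 genes of the endothelial response to blood flow was followed through 18 RNA-seq libraries of sorted mouse cortical endothelial cells: Klf2, Klf4, Klf6, Klf10, Klf15, Nos3, Piezo1 and Edn1. They were chosen by name, as the 8 listed symbols among the 21638 rows of the deposited gene table, and all 8 were found and passed the filter on low counts. The libraries form 6 groups of 3. Wild-type mice (genotype WT) had either sham surgery or middle cerebral artery occlusion (MCAO, a stroke model in which the artery feeding much of 1 hemisphere is blocked), and endothelial cells came from the ipsilateral (operated) and contralateral (opposite) side, which gave the groups sham ipsilateral, sham contralateral, MCAO ipsilateral and MCAO contralateral. The other 2 groups are MCAO ipsilateral cells from mice labelled Hdac2 ECKO (Hdac2lox/lox:Cdh5CreERT2) or Ezh2 ECKO (Ezh2lox/lox:Cdh5CreERT2), in which tamoxifen activates CreERT2, driven by the endothelial Cdh5 promoter, to delete a histone deacetylase or the histone H3K27 methyltransferase. All 18 libraries, the wild-type ones included, are labelled as treated with tamoxifen at 75 mg per kg, and the schedule (days 0 to 4, 5 doses) is given for the 2 floxed lines. The mice were adult, every brain was taken on day 7, and cells were sorted as CD31+, CD41- and CD45-. The labels name no CreERT2 for the wild-type mice, so a deletion cannot be told apart here from the Cre driver, and they do not say whether libraries of a group came from separate animals, so p-values measure the spread between these libraries, which may be partly technical.

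Endothelial cells sense the drag of flowing blood. Piezo1, a mechanically gated cation channel, and junctional receptor complexes start the response, and the kinase cascade of MEKK3 and ERK5 activates MEF2 factors, which switch on the zinc-finger transcription factors Klf2 and Klf4. Under steady laminar flow these factors raise Nos3, the endothelial nitric oxide synthase that relaxes vessels, and hold down Edn1, the precursor of the vasoconstrictor endothelin-1, together with leukocyte adhesion genes. Klf6 and Klf10 are related factors, known from responses to injury and to TGF-beta, and Klf15 is induced by glucocorticoids in many tissues.

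The upstream stretches of Klf2 and Klf4 are printed because these factors stand at the centre of the pathway and because they differ in the motif through which MEF2 acts. They are RefSeq sequences of build GRCm38.p6, 250 bases up to the start site and read along the gene, of Klf2 from chr8:72318812-72319061 on the plus strand and of Klf4 from chr4:55532476-55532725 on the minus strand. Capitals mark motif matches, and positions count back from -1, the last base before the start site.
Klf2: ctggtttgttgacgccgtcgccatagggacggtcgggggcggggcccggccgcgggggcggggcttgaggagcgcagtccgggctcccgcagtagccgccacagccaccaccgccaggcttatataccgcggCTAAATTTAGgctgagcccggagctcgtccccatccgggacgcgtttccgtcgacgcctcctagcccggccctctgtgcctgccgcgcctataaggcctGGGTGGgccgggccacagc
Klf4: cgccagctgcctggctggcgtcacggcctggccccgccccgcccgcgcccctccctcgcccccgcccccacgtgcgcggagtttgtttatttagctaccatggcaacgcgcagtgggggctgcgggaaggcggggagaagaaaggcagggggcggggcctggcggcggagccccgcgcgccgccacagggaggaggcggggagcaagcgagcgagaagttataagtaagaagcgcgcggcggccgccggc
The Klf2 stretch held 1 match to the MEF2 consensus, at -118 to -109, and 1 to CCACCC (here on the opposite strand as its complement), the core of the box that Klf proteins bind, at -19 to -14. No motif searched for was matched in the Klf4 window, which says only that these letters are not there. In all, 5 motifs were searched on both strands of the 300 bases from 250 before to 50 after the start: MEF2, held by 1.86% of 32851 RefSeq promoters, CCACCC by 31.5%, TGANTCA (AP-1) by 7.81%, TGACGTCA (CRE) by 1.79% and TATAAA by 13.6%. Of the other members, 4 had an entry (Klf6, Klf15, Piezo1, Edn1), and their single match was TATAAA in Piezo1 at -24 to -19. Nos3 and Klf10 were not searched.

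The libraries held 25791401 to 57576255 counts each. Summed markers of endothelial cells (10 genes, Cldn5, Pecam1 and Cdh5 among them, none at 0 in any library) reached 12364 to 28409 CPM (counts brought to a common library total with edgeR's TMM factors), and each summed list for pericytes and smooth muscle, astrocytes, microglia, neurons, oligodendrocyte lineage and fibroblasts stayed at or under 203 CPM. Haemoglobin and other red cell genes ranged from 71.0 CPM in an Ezh2 ECKO library to 297898 CPM in an Hdac2 ECKO library. MCAO contralateral 1 and Ezh2 ECKO 2 stood apart, with median correlations to the other libraries of 0.708 and 0.722 against 0.794 to 0.919 elsewhere, and carried the highest summed olfactory and vomeronasal receptor signal, 1889 and 2083 CPM. The targeted genes did not check the labels: Hdac2 was 57.6, 85.0 and 87.9 CPM in the libraries labelled Hdac2 ECKO against 84.4, 68.2 and 96.1 in MCAO ipsilateral (log2 difference -0.11 ± 0.32 SE, edgeR adjusted p = 0.925). Ezh2 was 12.0, 19.7 and 8.41 CPM in the libraries labelled Ezh2 ECKO against 4.45, 7.02 and 7.85 (1.05 ± 0.86, edgeR adjusted p = 0.485), so directions drawn from these groups rest on the labels alone. Whether these counts cover the deleted exons is not known.

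Klf2 and Klf4 were among the most abundant transcripts of these cells. Per length, as FPKM averaged over the 18 libraries, Klf2 stood at 262, above 98.4% of the 17094 tested genes, and Klf4 at 175, above 97.7%. Edn1 followed at 75.4 FPKM, Klf10 at 66.2, Klf6 at 59.2 and Nos3 at 20.4, while Piezo1 at 2.36 stood near the middle of all genes (above 56.2%) and Klf15 at 0.360 in the lower part (above 33.9%). Most members varied less between libraries than the median gene. The coefficient of variation of CPM over all 18 libraries was 24.6% for Klf2, 24.7% for Nos3, 25.6% for Klf6, 25.7% for Piezo1 and 27.2% for Klf4, against a median of 40.0% for the 7814 genes that averaged 10 CPM or more, of which 7.95% varied less than Klf2 and 13.3% less than Klf4. Edn1 (31.9%) and Klf10 (37.3%) lay nearer that median, and Klf15, too low for that comparison, varied by 167%. The 7814 genes were not matched to the members by level, and the part of abundance in these shares was not tested.

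**Figure D1:**
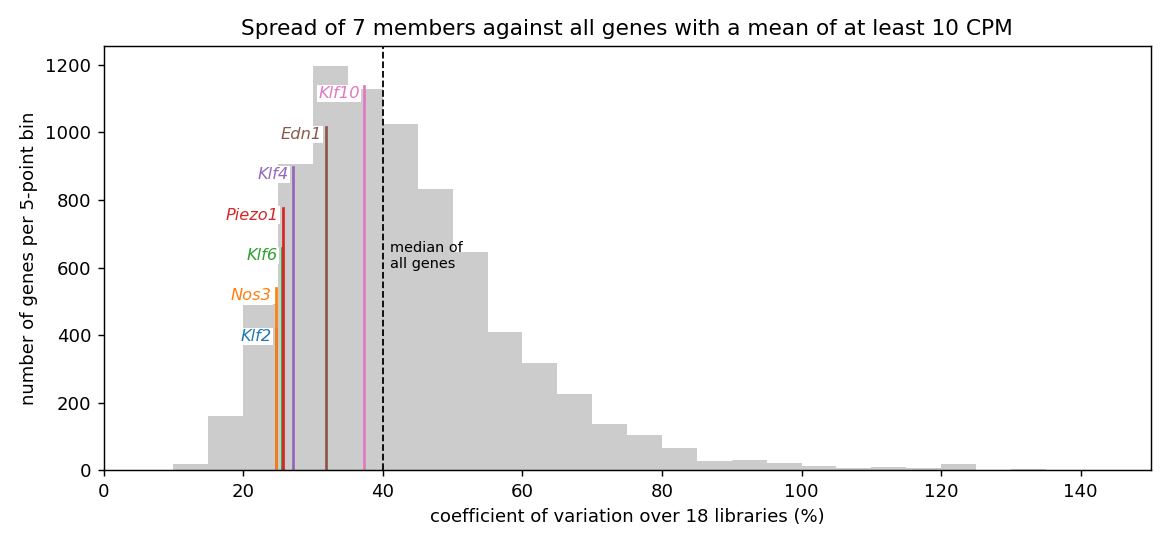
Spread of 7 members between libraries. The grey bars count genes averaging 10 CPM or more by their coefficient of variation over 18 libraries (x axis, %), the coloured lines mark the members and the dashed line the median of 40.0%; all 7 members lie left of it, from Klf2 at 24.6% to Klf10 at 37.3%.

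Piezo1, the flow sensor, was the least abundant member after Klf15. It stood at 33.5, 23.5 and 26.7 CPM in sham ipsilateral and 23.9, 20.9 and 27.4 in sham contralateral, and 24.7, 23.2 and 26.4 in MCAO ipsilateral and 15.7, 19.1 and 19.9 in MCAO contralateral. Hdac2 ECKO gave 29.2, 23.0 and 25.1 CPM and Ezh2 ECKO 33.8, 8.99 and 17.9. The 3 MCAO contralateral libraries were the lowest of the 4 wild-type groups and did not overlap sham contralateral or MCAO ipsilateral, and the widest spread was within Ezh2 ECKO. In group means the order was sham ipsilateral, Hdac2 ECKO, MCAO ipsilateral, sham contralateral, Ezh2 ECKO and MCAO contralateral, and every neighbouring pair overlapped. The exons of Piezo1 (chr8:122481698-122551329, minus strand) share 2441 bases, 24.57% of its exon length, with Ctu2 on the opposite strand. The strand setting of the counting is not given in the sources used here, so reads of the genes may not be separated. Ctu2 averaged 24.0 CPM and followed Piezo1 with Pearson's r of 0.87 and Spearman's rho of 0.81 over the 18 libraries.

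Klf2 (chr8:72319033-72321656), the best known flow-induced factor, had its highest group means in the sham libraries. Its levels were 573, 473 and 638 CPM in sham ipsilateral and 563, 654 and 462 in sham contralateral, against 449, 497 and 359 in MCAO ipsilateral and 341, 483 and 435 in MCAO contralateral. It was measured at 681, 448 and 375 CPM in Hdac2 ECKO and at 641, 285 and 350 in Ezh2 ECKO. No pair of groups next to each other in the order of means (sham ipsilateral, sham contralateral, Hdac2 ECKO, MCAO ipsilateral, Ezh2 ECKO, MCAO contralateral) was free of overlap, and the first library of each deletion group was as high as the sham libraries while the other 2 were lower.

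Klf4 (chr4:55527143-55532466), which shares many targets with Klf2, was lowest on the ipsilateral side after occlusion. It read 530, 775 and 691 CPM on the ipsilateral side of sham mice, 496, 627 and 393 on their contralateral side, 389, 329 and 408 in MCAO ipsilateral and 384, 443 and 406 in MCAO contralateral. The libraries labelled Hdac2 ECKO gave 783, 689 and 560 CPM and those labelled Ezh2 ECKO 678, 441 and 580. All 3 MCAO ipsilateral libraries lay below all 3 of sham ipsilateral, of Hdac2 ECKO and of Ezh2 ECKO. By group mean the order was Hdac2 ECKO, sham ipsilateral, Ezh2 ECKO, sham contralateral, MCAO contralateral and MCAO ipsilateral, with overlap between all neighbours.

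Klf6 (chr13:5861482-5870394), a factor induced in injured endothelium, was 280, 288 and 304 CPM in sham ipsilateral cells, 335, 347 and 232 in contralateral ones, 226, 152 and 201 in MCAO ipsilateral and 248, 187 and 246 in MCAO contralateral. The deletion groups did not overlap each other, with 390, 331 and 283 CPM in Hdac2 ECKO and 234, 147 and 245 in Ezh2 ECKO. Its order of means was Hdac2 ECKO, sham contralateral, sham ipsilateral, MCAO contralateral, Ezh2 ECKO and MCAO ipsilateral, and the step from sham ipsilateral to MCAO contralateral was the only one between neighbours without overlap.

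Klf10 (chr15:38291463-38300706), an early TGF-beta response factor, was highest in the deletion groups: 515, 351 and 377 CPM in Hdac2 ECKO and 450, 247 and 366 in Ezh2 ECKO. The wild-type groups held 211, 265 and 331 CPM in sham ipsilateral cells, 205, 267 and 145 in contralateral ones, 262, 191 and 209 in MCAO ipsilateral and 247, 224 and 120 in MCAO contralateral. Every wild-type library was below the lowest of Hdac2 ECKO, while Ezh2 ECKO reached down into the wild-type range with 1 library. All neighbours in the order of means (Hdac2 ECKO, Ezh2 ECKO, sham ipsilateral, MCAO ipsilateral, sham contralateral, MCAO contralateral) overlapped.

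Klf15 (chr6:90462576-90475238) was near the detection limit, so its counts are given. They were 16, 4 and 4 in sham ipsilateral and 8, 6 and 0 in sham contralateral (0 to 0.330 CPM over the 6), against 62, 106 and 28 in MCAO ipsilateral and 191, 30 and 24 in MCAO contralateral (0.514 to 6.00 CPM). All 6 occluded wild-type libraries were above all 6 sham libraries. In Hdac2 ECKO the counts were 2, 28 and 154 (0.0661, 0.843 and 4.53 CPM), which spans nearly the whole range of the series, and in Ezh2 ECKO 2, 2 and 0. A count of 0 allows up to 0.0720 CPM in sham contralateral 3 and 0.0839 CPM in Ezh2 ECKO 3 (3 counts, for counting error only), and the 95% Wilson interval of the 2 counts in Ezh2 ECKO 1 runs from 0.0148 to 0.197 CPM. Most low counts in this table are even, so a count of 2 may be 1 fragment, and both limits would then be too narrow. Ordered by mean, the groups ran MCAO contralateral, Hdac2 ECKO, MCAO ipsilateral, sham ipsilateral, sham contralateral and Ezh2 ECKO, with overlap between all neighbours except MCAO ipsilateral and sham ipsilateral. The highest value belongs to MCAO contralateral 1, which stood apart from the other libraries and had a high olfactory and vomeronasal receptor signal. The 7 astrocyte markers summed to 47.5 CPM in MCAO contralateral 1 and 33.6 in Hdac2 ECKO 3, within the 30.8 to 92.2 CPM of all libraries, and none of the 7 was at 0 in either. The part of that signal, of that library or of astrocyte RNA in the Klf15 values was not tested.

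Of the effectors, Nos3 (chr5:24364810-24384474) was 117, 82.9 and 87.6 CPM in sham ipsilateral cells, 106, 90.4 and 82.7 in contralateral ones, 95.5, 83.4 and 71.1 in MCAO ipsilateral and 111, 104 and 60.4 in MCAO contralateral. It gave 90.8, 54.3 and 86.5 CPM in Hdac2 ECKO and 90.8, 62.5 and 36.5 in Ezh2 ECKO. All 6 groups overlapped with their neighbours in the order of means (sham ipsilateral, sham contralateral, MCAO contralateral, MCAO ipsilateral, Hdac2 ECKO, Ezh2 ECKO). Nos3 shares 294 exon bases (7.115% of its exon length) with Atg9b and 1040 (25.17%) with the antisense gene Gm15587, both on the opposite strand. As for Piezo1, reads of these genes may not be separated.

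Edn1 (chr13:42301476-42307990) was 168, 125 and 106 CPM in sham ipsilateral cells, 174, 132 and 132 in contralateral ones and 108, 162 and 165 in MCAO ipsilateral. MCAO contralateral was the most scattered group, at 171, 97.1 and 244 CPM. Hdac2 ECKO stood at 211, 269 and 230 CPM and Ezh2 ECKO at 140, 89.0 and 179. Only 1 library outside Hdac2 ECKO, MCAO contralateral 3, reached the range of that group. The order of means was Hdac2 ECKO, MCAO contralateral, sham contralateral, MCAO ipsilateral, Ezh2 ECKO and sham ipsilateral, and all neighbours overlapped.

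**Figure D2:**
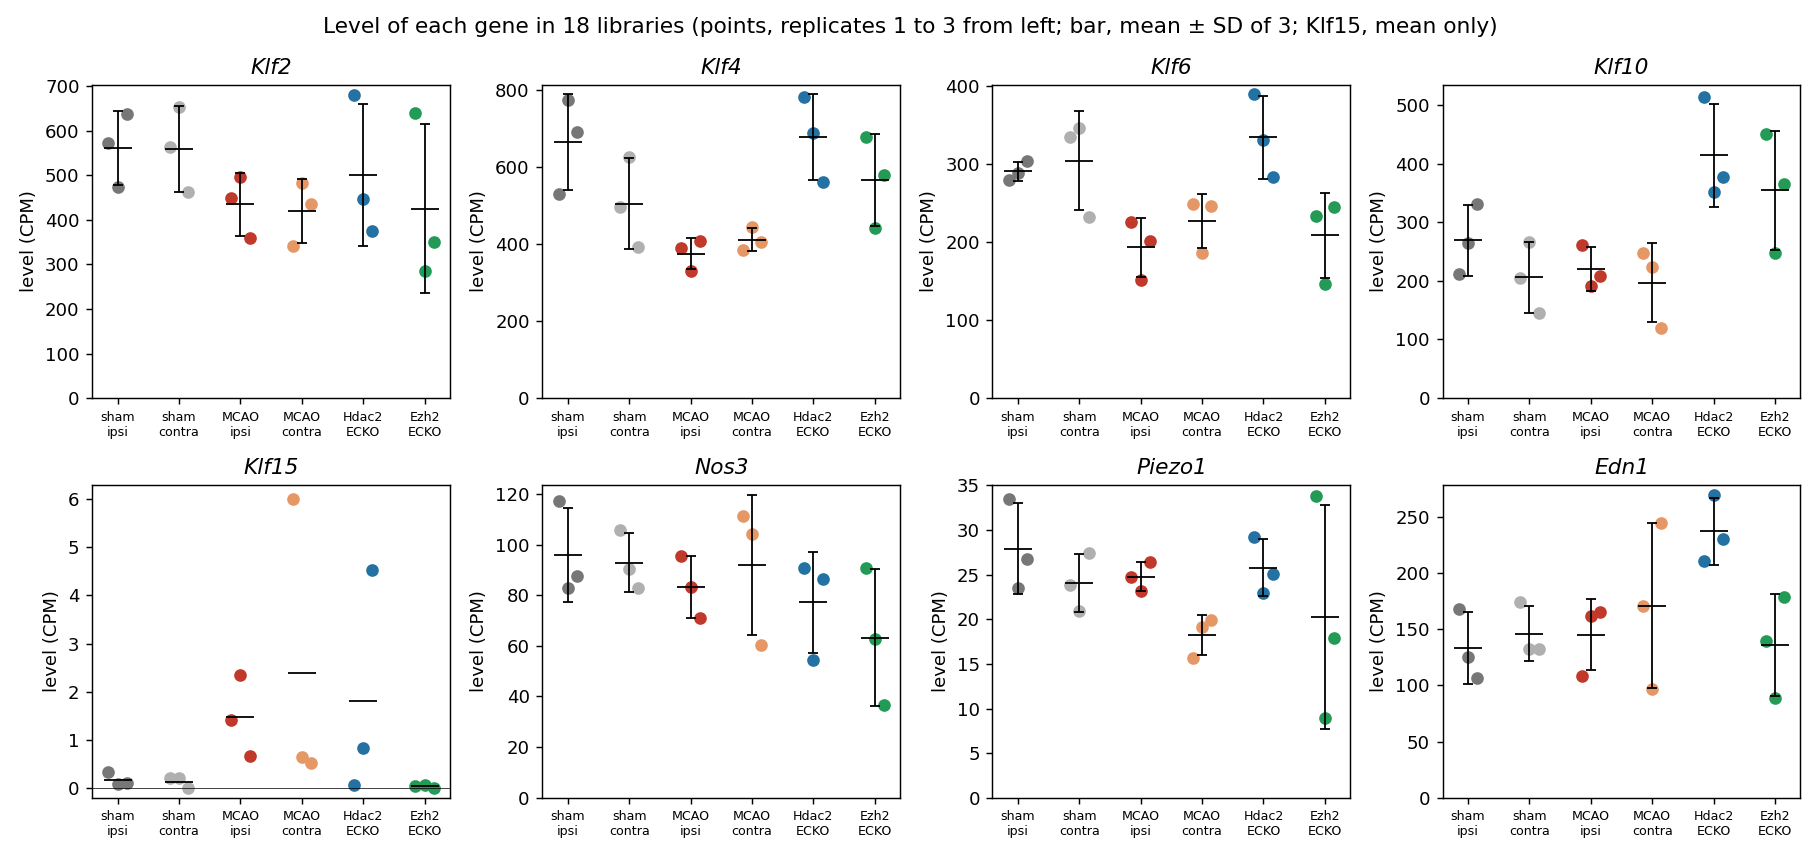
Level of each member in every library. The y axes give CPM (TMM-scaled, linear), the points are the 3 libraries of each of the 6 groups and the bars the mean ± SD (for Klf15 the mean only); Klf4 is below 409 CPM in MCAO ipsilateral and above 440 in both deletion groups, and Klf15 is at or under 0.330 CPM in the sham libraries and above 0.5 in the occluded wild-type ones.

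The question of the main comparison, what occlusion does to ipsilateral endothelium, gave no call among the members. MCAO ipsilateral against sham ipsilateral left 0 of 8 past an adjusted p of 0.05 by edgeR's quasi-likelihood test, as for all tested genes (0%), and DESeq2 called none of the members either. At an unadjusted p under 0.05 there was 1 of 8, Klf4, against 7.08% of all genes. Klf4 averaged 375 ± 41.1 CPM (SD, n = 3) after occlusion and 665 ± 125 in sham, a log2 difference of -0.83 ± 0.28 SE (edgeR adjusted p = 0.579). Klf6, at 193 ± 37.8 against 291 ± 11.9 CPM, differed by -0.59 ± 0.29 (edgeR adjusted p = 0.707), and Klf15, at 1.47 ± 0.836 against 0.177 ± 0.132 CPM, by 3.02 ± 1.52 (edgeR adjusted p = 0.707). These 3 were the members whose libraries did not overlap between the groups, 3 of 8, where 27.7% of all genes did not. Klf2 differed by -0.37 (95% interval -1.05 to 0.31), Nos3 by -0.20 (-0.93 to 0.53) and Edn1 by 0.12 (-0.59 to 0.84), intervals that hold both no difference and one of over 1.4-fold in at least 1 direction. Pericyte and smooth muscle markers moved with these groups: 7 of the 8 tested were lower, their sum ran from 38.0 to 88.7 CPM after occlusion and from 97.6 to 151 in sham, and 3 of the 9 were at 0 in 1 occluded library. Microglia and macrophage markers were higher for 8 of 8 (median log2 difference 2.87, 3 at an unadjusted p under 0.05), with sums of 9.23 to 25.6 CPM after occlusion against 3.60 to 6.58 in sham, where each library had 2 or 3 of the 9 at 0. Arterial endothelial markers were lower for 8 of 9 (median -0.31, 3 lower and 1 higher at an unadjusted p under 0.05), with overlapping sums of 534 to 814 and 619 to 1051 CPM. Venous endothelial markers were higher for 4 of 6 (median 0.89, 3 higher and 1 lower at an unadjusted p under 0.05). None of these markers was called by edgeR, and their part in the member values was not tested. In bulk samples fewer cells of a type and less RNA per cell cannot be told apart.

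The opposite side gave no call either. In MCAO contralateral against sham contralateral 0 of 8 were called by edgeR (0% of all genes) and 0 by DESeq2, and 1 of 8, Klf15, had an unadjusted p under 0.05, against 4.41% of all genes. Klf15 was 2.39 ± 3.13 CPM against 0.135 ± 0.117, a log2 difference of 4.12 ± 1.60 (edgeR adjusted p = 0.920), and 2.13 without MCAO contralateral replicate 1. Klf4 differed by -0.30 ± 0.28, Klf6 by -0.42 ± 0.29 and Klf2 by -0.42 ± 0.33 (edgeR adjusted p = 0.920 for each), and Edn1 by 0.23 ± 0.34. Klf15 and Piezo1 were the 2 of 8 without overlap, against 9.65% of all genes, Piezo1 being lower (18.2 ± 2.24 against 24.1 ± 3.27 CPM, -0.40 ± 0.42). Pericyte and smooth muscle markers were lower for 8 of 8 here (median -1.45, 1 at an unadjusted p under 0.05, sums of 12.5 to 60.5 against 86.7 to 173 CPM) and microglia and macrophage markers higher for 6 of 8 (median 1.83, 2 at an unadjusted p under 0.05, sums of 7.16 to 19.2 against 3.22 to 8.68 CPM). Their part was not tested.

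Taking both sides together gave each member 6 occluded and 6 sham libraries. The labels do not say whether the sides share animals, and the SDs and tests here treat all these libraries as independent. Klf4 averaged 393 ± 37.8 against 585 ± 139 CPM (log2 difference -0.56 ± 0.20, edgeR adjusted p = 0.324), Klf6 210 ± 37.6 against 298 ± 41.3 (-0.51 ± 0.20, adjusted p = 0.424 by edgeR) and Klf2 427 ± 64.3 against 561 ± 80.4 (-0.39 ± 0.23, edgeR adjusted p = 0.665). Klf15 was higher in all 6 occluded libraries, 1.93 ± 2.11 against 0.156 ± 0.114 CPM, by 3.57 ± 1.10 (edgeR adjusted p = 0.223), and was the single member without overlap, against 1.42% of all genes. DESeq2 called it, with a log2 difference of 3.76 and an adjusted p of 0.00956, while the other alternatives called it in no case, with adjusted p from 0.122 to 0.543. By edgeR 0 of 8 members were called, against 0.152% of all genes, and 3 of 8 had an unadjusted p under 0.05, against 9.09%. Nos3 (-0.11 ± 0.25), Piezo1 (-0.29 ± 0.30), Klf10 (-0.18 ± 0.24) and Edn1 (0.17 ± 0.24) lay within about 1 standard error of 0. Over both sides the pericyte and smooth muscle markers were lower for 8 of 8 (median -1.20, 3 at an unadjusted p under 0.05) and those of microglia and macrophages higher for 8 of 8 (median 2.18, 3 at an unadjusted p under 0.05), with 0 called by edgeR in either list, and their part in the Klf4, Klf6 and Klf15 values was not tested. Venous endothelial markers were higher for 4 of 6, with 1, Lcn2, called higher by edgeR (0.152% of all genes were called). At an unadjusted p under 0.05, 3 of these markers were higher and 1 lower. Their part was not tested either.

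Side alone did not separate the members. Sham ipsilateral against sham contralateral and the interaction of side and occlusion each gave 0 of 8 calls by edgeR and by DESeq2 and 0 of 8 at an unadjusted p under 0.05, against 0% of all genes called by edgeR in both and 1.85% and 3.38% at the unadjusted threshold. In MCAO ipsilateral against MCAO contralateral the counts were also 0 of 8 by both tools and 0 of 8 unadjusted (0% and 3.08% of all genes). Piezo1 was the member without overlap there, 24.8 ± 1.61 against 18.2 ± 2.24 CPM (0.44 ± 0.42, edgeR adjusted p = 1), where 5.37% of all genes did not overlap. The interaction term was -0.53 ± 0.40 for Klf4 (95% interval -1.36 to 0.30) and 0.05 ± 0.46 for Klf2 (-0.91 to 1.01).

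**Figure D3:**
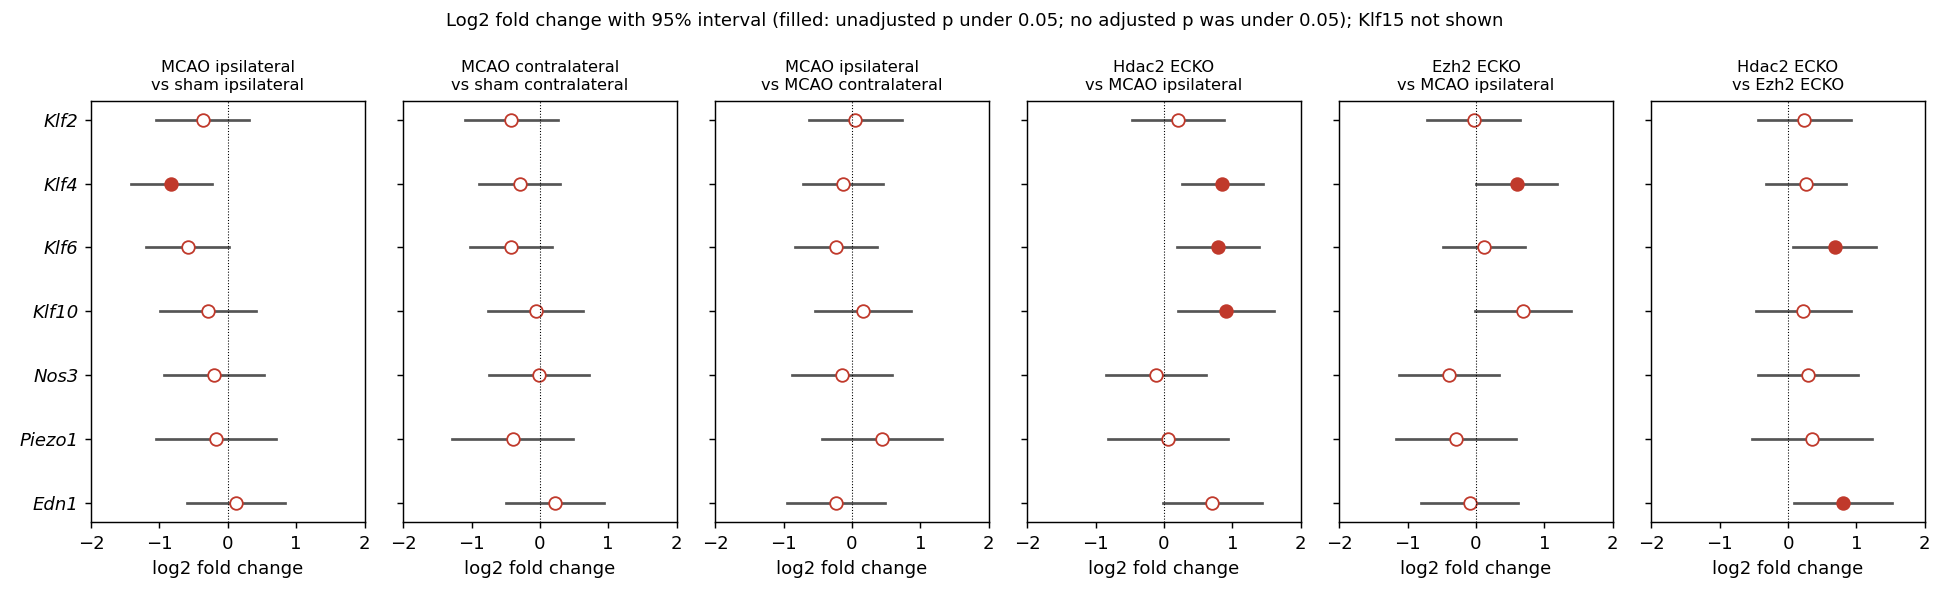
Log2 difference of 7 members in 6 comparisons, 1 per panel (Klf15, with far wider intervals, is not drawn). The x axes give the log2 fold change fitted by edgeR, points are the estimates (filled where the unadjusted p is under 0.05) and lines their 95% intervals; Klf4 lies at -0.83 in MCAO against sham on the ipsilateral side and at 0.85 and 0.59 in the deletion groups against MCAO ipsilateral.

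The libraries labelled Hdac2 ECKO were set against the wild-type MCAO ipsilateral libraries, which also serve as the control for Ezh2 ECKO and as the treated group above, so the 3 sets of differences are not independent. Klf4 (677 ± 112 against 375 ± 41.1 CPM, log2 difference 0.85 ± 0.28, edgeR adjusted p = 0.402), Klf10 (414 ± 87.9 against 220 ± 36.9, 0.91 ± 0.34, adjusted p = 0.426) and Klf6 (335 ± 53.2 against 193 ± 37.8, 0.79 ± 0.29, adjusted p = 0.426) were higher by similar amounts. Edn1 was 237 ± 29.8 against 145 ± 31.7 CPM (0.71 ± 0.35, edgeR adjusted p = 0.514). These 4 of 8 did not overlap and were all higher, against 9.54% of all genes higher without overlap, and 3 of 8 had an unadjusted p under 0.05, against 9.85%. The 9.54% counts only genes that were higher. The shares without overlap in the other comparisons count both directions, so it cannot be set beside them. None of the 8 was called by edgeR (0.0117% of all genes) or by DESeq2, whose adjusted p for Klf4 was 0.0625 (the others reached up to 0.997). Klf2 differed by 0.21 (95% interval -0.47 to 0.88) and Nos3 by -0.11 (-0.84 to 0.62).

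Other genes were higher in the same libraries. Of the 20 immediate early genes, the fast transcription factors and regulators that also rise when tissue is handled, 16 were higher in Hdac2 ECKO with a median log2 difference of 1.08, against 0.11 over all tested genes, and 2 were called: the orphan nuclear receptors Nr4a1 (213 ± 49.5 against 47.8 ± 2.66 CPM, 2.15 ± 0.33, edgeR adjusted p = 0.0147) and Nr4a2 (276 ± 61.1 against 38.2 ± 11.0 CPM, 2.85 ± 0.41, edgeR adjusted p = 0.0109). Both calls were lost without MCAO ipsilateral replicate 1 or 2 or Hdac2 ECKO replicate 1, and that of Nr4a1 also without Hdac2 ECKO replicate 2, with edgeR adjusted p up to 0.266 for Nr4a1 and 0.239 for Nr4a2 and log2 differences of at least 1.91 and 2.64. Fitting only the compared groups also ended them (edgeR adjusted p = 0.0596 and 0.0566), while the other 6 alternatives kept them. The list also moved in other comparisons with MCAO ipsilateral. In MCAO against sham on that side 12 of 20 were lower, 6 lower and 3 higher at an unadjusted p under 0.05. In Ezh2 ECKO against MCAO 11 of 20 were higher, 7 higher and 3 lower at that threshold. The 1 called by edgeR there, where 1.46% of all genes were, was Ier3, which was lower. The summed level of the 20 genes was 4277 to 6013 CPM in Hdac2 ECKO and 2200.0 to 3298 in MCAO ipsilateral, and over the 18 libraries this sum followed Klf4 with r of 0.59 (rho 0.66) and Edn1 with r of 0.62 (rho 0.54). For the other members r was 0.48 for Klf10 (rho 0.55), 0.44 for Klf6, 0.27 for Piezo1, 0.20 for Klf2, -0.07 for Klf15 and -0.37 for Nos3. All 9 arterial endothelial markers were also higher, 0 called by edgeR and 5 at an unadjusted p under 0.05, with sums of 1381 to 1401 CPM against 534 to 814, and none at 0. Markers of pericytes and smooth muscle were lower for 6 of 8 (median -1.32), those of microglia and macrophages for 6 of 8 (median -1.40), and red cell markers were higher for 6 of 7 (5 at an unadjusted p under 0.05). The part of these lists in the Klf and Edn1 values was not tested. With haemoglobin counts removed before scaling, Klf4 differed by 0.84, Klf6 by 0.79, Klf10 by 0.90 and Edn1 by 0.70.

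In the libraries labelled Ezh2 ECKO, Klf4 was 566 ± 119 against 375 ± 41.1 CPM (log2 difference 0.59 ± 0.28, edgeR adjusted p = 0.256) without overlap, and Klf10 was 355 ± 102 against 220 ± 36.9 CPM (0.69 ± 0.34, edgeR adjusted p = 0.268) with overlap. Klf15, with 4 counts over the 3 libraries against 196 in MCAO ipsilateral, differed by -5.20 ± 1.72 (edgeR adjusted p = 0.113), a fitted value that rests on those few counts, and DESeq2 called it (-5.12, adjusted p = 0.0134, where the other alternatives reached up to 0.354). None of the 8 was called by edgeR, against 1.46% of all genes, 2 of 8 had an unadjusted p under 0.05, against 19.2%, and 2 of 8 did not overlap, against 29%. Klf6 differed by 0.11 ± 0.29, Edn1 by -0.09 ± 0.34, Klf2 by -0.03 ± 0.33, Nos3 by -0.40 ± 0.35 and Piezo1 by -0.29 ± 0.42. Red cell markers summed to 71.0 to 671 CPM here and to 38268 to 65450.1 in MCAO ipsilateral, 6 of 7 being lower and 5 called, and without haemoglobin counts Klf4 differed by 0.62 and Klf15 by -5.20. Venous endothelial markers were lower for 4 of 6, with 1, Lcn2, called lower by edgeR (1.46% of all genes were called). Of the 10 endothelial markers 5 were lower and 5 higher, 1 being called lower. At an unadjusted p under 0.05 were 4 lower and 1 higher. Arterial endothelial markers were higher for 6 of 9 (0 called). Pericyte and smooth muscle markers were lower for 5 of 8 (median -1.03) and those of microglia and macrophages for 6 of 8 (median -0.51). Oligodendrocyte lineage markers were higher for 5 of 7, with 1 called lower. The part of these lists in the member values was not tested.

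Set directly against each other, Hdac2 ECKO exceeded Ezh2 ECKO in the mean of all 8 members, with 0 of 8 called by edgeR (0.123% of all genes) and Klf15 called by DESeq2 (5.57, adjusted p = 0.0107, where the other alternatives reached up to 0.423). Edn1 (237 ± 29.8 against 136 ± 45.0 CPM, log2 difference 0.80 ± 0.35, edgeR adjusted p = 0.387), Klf6 (335 ± 53.2 against 209 ± 54.1, 0.68 ± 0.29, adjusted p = 0.378) and Klf15 (1.81 ± 2.38 against 0.0369 ± 0.0320, 5.50 ± 1.74, adjusted p = 0.230) were the 3 of 8 with an unadjusted p under 0.05, against 11.2% of all genes, and the 3 of 8 without overlap, against 12.1%. The Klf15 value was 3.51 without Hdac2 ECKO replicate 3. Klf4 differed by 0.26 (95% interval -0.33 to 0.85) and Klf10 by 0.22 (-0.47 to 0.92). Klf2, Klf10, Nos3 and Piezo1 changed sign with some single library left out. Red cell markers were higher for 7 of 7 (median 9.14, 5 called by edgeR). Immediate early genes were higher for 17 of 20 (median 0.79, 9 at an unadjusted p under 0.05). Arterial markers were higher for 8 of 9 (1 called) and venous ones for 6 of 6. Those of pericytes and smooth muscle were lower for 5 of 8, and of microglia and macrophages for 6 of 8. The part of these lists was not tested.

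The genes around the members were read from lists, by counts and medians. Of 20 flow sensors and junctional mechanosensors, 0 were called in MCAO against sham on either side or over both, 8 were higher and 12 lower on the ipsilateral side, and the median was -0.11 against -0.09 for all genes. In Ezh2 ECKO 1 of the 20 was called, where 1.46% of all genes were, the calcium channel Trpv4, which fell from 6.16 ± 2.90 to 0.671 ± 0.602 CPM (-3.19 ± 0.80, edgeR adjusted p = 0.0493). This call held only without MCAO ipsilateral replicate 3 among the 6 libraries left out in turn (edgeR adjusted p of 0.0405 to 0.191), and by DESeq2 alone of the other 7 alternatives. The MEKK3, ERK5, MEF2 and cerebral cavernous malformation genes, which relay the signal to Klf2 and Klf4, had 0 of 14 called in any of the 9 comparisons and medians between -0.11 and 0.20. Neither the 10 tested of 12 other Klf genes, the 9 tested YAP and TAZ pathway genes nor the 5 tested endothelin pathway genes held a call in any comparison.

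Targets of Klf2 and Klf4 did not follow one direction. Of 20, 11 were higher and 9 lower in MCAO ipsilateral against sham (0 called, median 0.40 against -0.09 for all genes) and 9 higher and 11 lower in Ezh2 ECKO (median -0.40 against 0.17), where the single call (1.46% of all genes were called) was Adamts5, an aggrecan-cleaving protease (3.75 ± 3.65 against 0.153 ± 0.0938 CPM, 4.59 ± 1.04, edgeR adjusted p = 0.0373). The Adamts5 call held without Ezh2 ECKO replicate 1 and was lost without any 1 of the other 5 libraries (edgeR adjusted p up to 0.177). Genes that Klf2 represses or that are high under disturbed flow, such as adhesion molecules and chemokines, had 12 of 15 higher values in MCAO against sham on each side, with 0 called, and medians of 0.47 and 0.76 against 0.17 or less for all genes. In Hdac2 ECKO 9 of these 15 were higher, with 0 called by edgeR, a median of 0.78 and sums of 652 to 755 CPM against 347 to 433.

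The nitric oxide pathway list holds Nos3's partners and regulators. Over both sides, Nos3 differed by -0.11 ± 0.25 after occlusion, and Hsp90aa1, a chaperone that binds and activates it, rose from 290 ± 34.9 to 894 ± 432 CPM (1.62 ± 0.31, edgeR adjusted p = 0.0314), 1 of 25 pathway genes called (0.152% of all genes were), 17 being higher. The difference stayed at 1.42 to 1.84 with 1 library left out, but its call held only without MCAO ipsilateral replicate 3, MCAO contralateral replicate 1 or MCAO contralateral replicate 3 (edgeR adjusted p up to 0.158). The call was also lost with only the compared groups fitted (edgeR adjusted p = 0.0690) and with replicate number as a block (edgeR adjusted p = 0.0836). In Ezh2 ECKO 19 of the 25 were lower and 3 were called, where 1.46% of all genes were, with a median of -0.49 against 0.17 over all genes. Nos3 itself, not counted in the list, differed by -0.40 ± 0.35 there. Hsp90ab1, the constitutive chaperone, fell from 838 ± 467 to 186 ± 54.7 CPM (-2.17 ± 0.46, edgeR adjusted p = 0.0291), and Akt1, the kinase that phosphorylates the synthase, fell from 42.7 ± 8.60 to 10.9 ± 7.33 CPM (-1.97 ± 0.47, edgeR adjusted p = 0.0434). The third was Hsp90aa1, which fell from 883 ± 491 to 256 ± 25.6 CPM (-1.78 ± 0.44, edgeR adjusted p = 0.0449) and is named here outside the rule of 2 genes per list. All 3 calls in Ezh2 ECKO were lost without MCAO ipsilateral replicate 1 or 2 or Ezh2 ECKO replicate 2 or 3, with edgeR adjusted p up to 0.188 for Hsp90ab1, 0.212 for Akt1 and 0.258 for Hsp90aa1. Akt1 also lost its call without MCAO ipsilateral replicate 3, and Hsp90aa1 without Ezh2 ECKO replicate 1. The smallest falls among these settings were -1.76, -1.66 and -1.44 in the same order.

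Ratios within a library do not depend on scaling, so pairs of members were compared per base. The level of Klf4 relative to Klf2 was 0.74 ± 0.23 (SD, n = 3) in sham ipsilateral cells, 0.54 ± 0.034 in the contralateral sham group, 0.54 ± 0.14 in MCAO ipsilateral and 0.60 ± 0.070 in MCAO contralateral. It was 0.84 ± 0.13 for Hdac2 ECKO and 0.86 ± 0.19 for Ezh2 ECKO. The ratio of Klf10 to Klf2 was 0.334 to 0.443 in Hdac2 ECKO and 0.311 to 0.463 in Ezh2 ECKO, all above the 0.170 to 0.258 of MCAO ipsilateral and the 0.139 to 0.248 of the sham libraries, while MCAO contralateral reached 0.321. Edn1 exceeded Nos3 per base in every library. That ratio was tight in sham, 2.34 to 2.91 on the ipsilateral and 2.82 to 3.18 on the contralateral side, and wider elsewhere: 2.19 to 4.48 in MCAO ipsilateral, 1.80 to 7.80 in MCAO contralateral, 4.49 to 9.58 in Hdac2 ECKO and 2.75 to 9.45 in Ezh2 ECKO. The 3 Hdac2 ECKO values were above all 3 of MCAO ipsilateral, the closest being 4.49 and 4.48. These ratios were described and not tested.

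**Figure D4:**
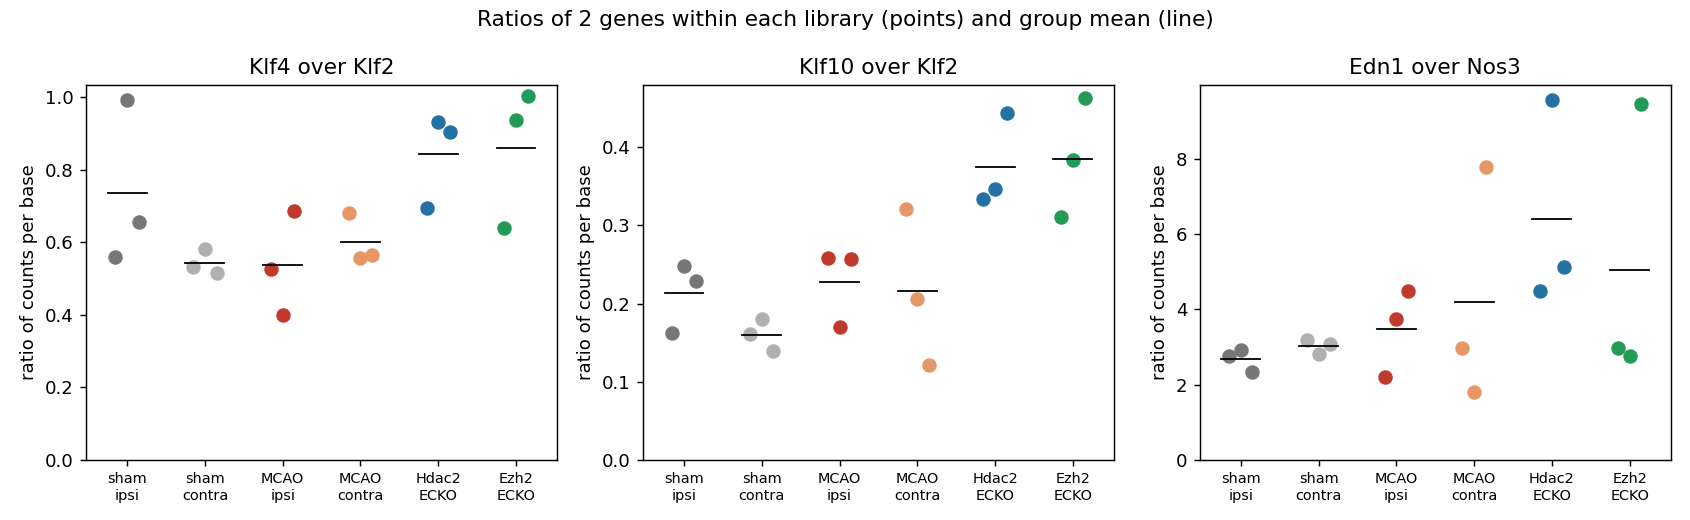
Ratios of members within each library, per base of exon. The y axes give the linear ratio, the points are the 3 libraries of each group and the short lines their mean; Klf10 over Klf2 is above 0.3 in all 6 deletion libraries, and Edn1 over Nos3 spreads from 2.34 to 3.18 in the sham libraries and up to 9.58 in the others.

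Across libraries the members did not move as 1 block. On log2 CPM over 18 libraries, which share depth and sorting differences, Pearson's r was 0.73 between Klf4 and Klf10 (rho 0.75), 0.71 between Klf4 and Klf6 (0.68) and 0.70 between Klf2 and Piezo1 (0.60), but 0.49 between Klf2 and Klf4 and 0.47 between Klf2 and Nos3. Klf2 and Piezo1 were both lower where the olfactory and vomeronasal receptor signal was higher (r -0.60, rho -0.43 and r -0.64, rho -0.31). The part of that signal in their correlation was not tested. Nos3 and Edn1, the vasodilator enzyme and the vasoconstrictor, had r of -0.27 (rho -0.19). Among 7813 other genes averaging 10 CPM or more, those most like Klf2 were Nfic (r 0.82, rho 0.83), Foxl2 (0.82, 0.76) and Bcl2l13 (0.82, 0.84), and those most like Klf4 were Wasl (0.83, 0.77), Amot (0.83, 0.81) and Kif1b (0.82, 0.89). Edn1 was followed most closely by Apol10b (0.84, 0.72), the adhesion molecule Vcam1 (0.80, 0.78) and Sphk2 (0.78, 0.79). The pattern most like Nos3 was that of Atg9b (0.91, 0.82), the neighbour that overlaps its exons on the other strand, ahead of Rapgef5 (0.89, 0.80) and Emp1 (0.88, 0.83).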

How the data were processed

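The libraries were made from ultra-low-input RNA of sorted cells with a SMART-Seq v4 PLUS kit. The submitters' processing notes name FastQC, cutadapt, STAR, featureCounts, DESeq2 and genome build mm10, with no versions here. The authors' deposited table is named as normalized but holds whole, unscaled counts per gene (library totals of 25791401 to 57576255), and was used as counts. Of counts from 1 to 20, 77.3% to 89.4% were even, so a count of 2 may be 1 fragment.

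Genes with at least 10 counts in at least 3 libraries (17094) were tested with edgeR 4.0.16 (R 4.3.3), quasi-likelihood F-test, TMM scaling, 1 fit of 6 group means over 18 libraries, Benjamini-Hochberg adjustment over all tested genes, threshold 0.05, and 9 comparisons. CPM and FPKM use TMM-scaled totals, and FPKM uses the gene lengths deposited with the counts. For the 8 members these lengths equal the GENCODE M21 exon lengths (GRCm38). Standard errors are the log2 difference over the square root of F. Wilson intervals are at 95%. The script was tested on simulated data. DESeq2 1.42.0, RLE scaling, no filter, a replicate block, only the compared groups, a receptor-background covariate, haemoglobin removed (added after seeing the data) and each library left out were alternatives. To look for pairing, deviations of genes from their group mean (log2 CPM, 7814 genes) were correlated between same-numbered sides. This correlation was above 0.1 in 4 of 6 pairs, not in all, so no block entered. The text names the members, at most 2 called genes per list and comparison (those of lowest adjusted p) and, for Klf2, Klf4, Nos3 and Edn1, the 3 genes of highest r (log2 CPM, prior count 2). The members, lists and rules were chosen with earlier results of these data known.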

Additional observations from a re-analysis of the deposited data

How the results depend on the processing

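No member was called by edgeR in any of the 9 comparisons under any alternative. DESeq2 called 1 member, Klf15, in 3 of them: MCAO against sham over both sides, Ezh2 ECKO against MCAO and the deletion groups set against each other. For the member differences whose unadjusted p was under 0.05, 87 of 90 values under other settings and 96 of 96 with 1 library left out kept their direction and side of the threshold, and the other 3, Klf15 by DESeq2, passed it. Klf15 (0 to 191 counts) is where depth limits most: with only the compared groups it was filtered out of the sham sides and of the comparison of the deletion groups. The replicate block changed no call of a member. Deviations of genes from their group mean correlated above 0.1 between same-numbered ipsilateral and contralateral libraries in 2 of 3 pairs each. These correlations of deviations were 0.365, 0.346 and -0.123 in sham and 0.277, 0.361 and 0.0361 in MCAO. Pairing was therefore not assumed, and the labels do not say whether the 2 sides share an animal.

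The number of all genes called, which sets the background, moved more. In MCAO against sham, ipsilateral edgeR called 0, with 2 under no filter, 1 under the covariate, 74 under only the compared groups and 64 under DESeq2. In MCAO against sham, contralateral edgeR called 0, with 26 under DESeq2. In the MCAO sides edgeR called 0, with 6 under DESeq2. In the sham sides edgeR called 0, with 6 under DESeq2. In the interaction edgeR called 0, with 1 under only the compared groups and 6 under DESeq2. In MCAO against sham over both sides edgeR called 26, with 40 under RLE, 4 under the block, 99 under the covariate and 312 under DESeq2. In Hdac2 ECKO against MCAO edgeR called 2, with 4 under RLE, 10 under the covariate, 0 under only the compared groups and 220 under DESeq2. In Ezh2 ECKO against MCAO edgeR called 250, with 12 under the block, 13 under the covariate, 485 under only the compared groups and 1548 under DESeq2. In Hdac2 ECKO against Ezh2 ECKO edgeR called 21, with 38 under no filter, 9 under the block, 54 under the covariate, 3 under haemoglobin removed and 586 under DESeq2. With 1 library left out the count ran from 0 to 1 in MCAO against sham, contralateral (without sham contralateral replicate 1, without MCAO contralateral replicate 1), from 0 to 266 in MCAO against sham over both sides (without sham contralateral replicate 1, without MCAO contralateral replicate 1), from 0 to 18 in Hdac2 ECKO against MCAO (without MCAO ipsilateral replicate 1, without MCAO ipsilateral replicate 3), from 5 to 298 in Ezh2 ECKO against MCAO (without MCAO ipsilateral replicate 1, without MCAO ipsilateral replicate 3), from 9 to 73 in Hdac2 ECKO against Ezh2 ECKO (without Ezh2 ECKO replicate 3, without Ezh2 ECKO replicate 1), and stayed at 0 elsewhere. Without Ezh2 ECKO replicate 2, 24 genes were called there.

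Of the calls named in the gene lists, 8 were followed through the alternatives (Nr4a1 and Nr4a2 in Hdac2 ECKO, Trpv4, Adamts5, Hsp90ab1, Akt1 and Hsp90aa1 in Ezh2 ECKO, Hsp90aa1 over both sides). The Ier3 call in Ezh2 ECKO and the calls of marker genes were not. Every one of the 8 kept its direction in every alternative run and lost its threshold in at least 1. DESeq2 kept all 8, and the covariate ended those 5 in Ezh2 ECKO. The replicate block ended 6, the same 5 and Hsp90aa1 over both sides (edgeR adjusted p of 0.0558 to 0.0836). The Hdac2 difference in Hdac2 ECKO was 0.029 with no filter and -0.25 to 0.021 with 1 library left out.

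Differences of members turned sign in 34 of 502 values under settings other than left-out libraries. With no filter these were Edn1 -0.014 in MCAO against sham, ipsilateral, Klf6 0.018 in the sham sides, Nos3 0.019 in Hdac2 ECKO against MCAO and Edn1 0.033 and Klf2 0.080 in Ezh2 ECKO against MCAO. With RLE these were Klf10 0.11 and Nos3 0.16 in MCAO against sham, contralateral, Klf10 -0.048 and Klf2 -0.093 in the MCAO sides, Klf2 -0.11 in the interaction and Edn1 0.078 and Klf2 0.12 in Ezh2 ECKO against MCAO. With only the compared groups these were Klf10 0.095 and Nos3 0.14 in MCAO against sham, contralateral, Klf10 -0.018 and Klf2 -0.065 in the MCAO sides, Klf2 -0.019 in the interaction and Edn1 0.024 and Klf2 0.070 in Ezh2 ECKO against MCAO. With DESeq2 these were Klf10 0.11 and Nos3 0.16 in MCAO against sham, contralateral, Klf10 -0.048 and Klf2 -0.093 in the MCAO sides, Klf2 -0.11 in the interaction and Edn1 0.078 and Klf2 0.12 in Ezh2 ECKO against MCAO. With the covariate these were Klf15 0.90 and Klf2 -0.12 in the MCAO sides, Klf15 0.76, Klf2 -0.29 and Piezo1 -0.16 in the interaction, Klf15 -0.85 in Hdac2 ECKO against MCAO and Edn1 0.033 and Klf2 0.29 in Ezh2 ECKO against MCAO. With 1 library left out, 50 of 528 values turned, with ranges of Edn1 -0.017 to 0.35 and Piezo1 -0.28 to 0.0035 in MCAO against sham, ipsilateral; Edn1 -0.12 to 0.50, Klf10 -0.27 to 0.20 and Nos3 -0.15 to 0.21 in MCAO against sham, contralateral; Edn1 -0.53 to 0.11, Klf10 -0.096 to 0.34, Klf15 -1.19 to 1.31 and Klf2 -0.099 to 0.19 in the MCAO sides; Edn1 -0.35 to 0.0070, Klf15 -0.40 to 0.84, Klf2 -0.15 to 0.13, Klf6 -0.26 to 0.036 and Nos3 -0.14 to 0.14 in the sham sides; Edn1 -0.37 to 0.25, Klf15 -1.60 to 0.92, Klf2 -0.086 to 0.20, Klf6 -0.30 to 0.0078 and Nos3 -0.42 to 0.013 in the interaction; Edn1 -1.5e-05 to 0.31 and Nos3 -0.17 to 0.0053 in MCAO against sham over both sides; Klf15 -1.72 to 0.80, Klf2 -0.12 to 0.33, Nos3 -0.30 to 0.030 and Piezo1 -0.087 to 0.080 in Hdac2 ECKO against MCAO; Edn1 -0.37 to 0.12, Klf2 -0.45 to 0.16, Klf6 -0.054 to 0.29 and Piezo1 -0.88 to 0.037 in Ezh2 ECKO against MCAO; Klf10 -0.014 to 0.43, Klf2 -0.095 to 0.66, Nos3 -0.0084 to 0.64 and Piezo1 -0.017 to 0.94 in Hdac2 ECKO against Ezh2 ECKO. The causes were not tested.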
